A study of Mus musculus with 12 samples.

Results

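Immediate early genes are the genes that cells switch on first after a stimulus, and the 10 described here, Fos, Fosb, Jun, Junb, Egr1, Egr2, Atf3, Dusp1, Nr4a1 and Ier2, are the ones most often used as a record of handling stress in cells taken out of tissue. The set is defined by these gene names, which are 10 of the 19938 genes with a symbol of their own on the array. All 10 were measured, each by 1 probe set annotated to that gene and no other.

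Transcription of these genes starts within minutes of a signal, without new protein synthesis, when kinases of the MAPK families phosphorylate factors such as Elk1, Srf and Creb1 that already sit at the promoters. Their transcripts are short-lived, so that a level reflects the recent past of the cell. Enzymatic digestion, warming and sorting are known to raise them in microglia and other myeloid cells, as are growth factors, cytokines and cell adhesion in intact tissue.

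The study asked how GL261 glioma, a mouse glioma line grown in the brain of syngeneic mice, alters the myeloid cells that enter or reside in the tumor. Affymetrix Mouse Gene 1.0 ST arrays were hybridised with RNA of 12 flow-sorted populations, 1 array for each population, so that no population was measured again. The 6 brain arrays were microglia (MG, CD11b+/CD45low) and macrophages (MP, CD11b+/CD45high) of normal brain and of tumor, and Gr1+ and Gr1- cells of tumor. The 6 blood arrays were Gr1+ and Gr1- cells of tumor-bearing mice, and cells named blood macrophage high and low from tumor-bearing and from normal mice. The mice were of strain C57BL/6 and the labels give all 12 arrays the same husbandry text, of implantation at 7 weeks and sacrifice 2 weeks later, although 4 arrays are labelled normal. The labels name no transgene for these arrays, and the number of animals behind an array is not given in the sources used here. The methods describe mincing and warm trypsin digestion of tissue before sorting, and do not say how long each of these sorts took.

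Values are log2 intensities as deposited. The background of an array was the 95th percentile of its 1027 olfactory receptor genes, most of which serve in sensory neurons, and it ran from 8.93 to 10.09. Between 11.2% and 39.1% of genes lay above it, with the lowest share on normal blood macrophage high. Several arrays held markers other than those of their label, which bears on every comparison that uses them. All 9 neutrophil markers were above background on normal MP, and 7 of 9 on blood Gr1+, on tumor-bearing blood macrophage high and on normal blood macrophage low, against 0 or 1 on the other 8 arrays. All 8 NK cell markers were above background on tumor-bearing blood macrophage low and 7 of 8 on normal blood macrophage high, whereas the macrophage low array of normal mice had 0, so that the names high and low run crosswise between the mice. All 7 microglia markers were above background on blood Gr1-, a blood sample by its label, and also on normal MP, tumor MP and tumor Gr1-. All 4 B cell markers were above background on blood Gr1- and on each blood macrophage array, against 1 of 4 on blood Gr1+ and 0 of 4 on each brain array. Their summed linear signals were 7182 and 23152 on blood macrophage high and low of tumor-bearing mice, and 14706 and 9078 on the same of normal mice. In sorted bulk RNA, fewer cells of a type and less RNA per cell cannot be told apart.

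The promoters of Fos, Dusp1 and Egr2 are shown because Fos and Dusp1 had the most alike profiles of any 2 of the 10 genes, and Egr2 had the profile least like the others. They are RefSeq windows of GRCm38.p6 that run from 250 bases before to 50 bases after the start site. Windows of 8 of the 10 genes were searched. Egr1 and Ier2 were left out of the search, so that nothing is said here of their promoters. Egr2 has 5 windows, and the one shown was taken from those with a CArG box. Capitals mark cAMP response elements (TGACGTCA) or their shorter core (TGACG) in Fos and Dusp1, the TATA box (TATAAA) in Fos, and the CArG box, bound by Srf, in Egr2.
Fos, chr12:85473640-85473939, plus strand: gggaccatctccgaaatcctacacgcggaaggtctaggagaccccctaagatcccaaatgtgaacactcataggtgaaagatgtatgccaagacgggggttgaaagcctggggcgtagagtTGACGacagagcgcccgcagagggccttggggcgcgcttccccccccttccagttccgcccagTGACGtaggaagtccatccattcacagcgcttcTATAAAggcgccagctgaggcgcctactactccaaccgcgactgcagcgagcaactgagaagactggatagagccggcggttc
Dusp1, chr17:26508423-26508722, minus strand: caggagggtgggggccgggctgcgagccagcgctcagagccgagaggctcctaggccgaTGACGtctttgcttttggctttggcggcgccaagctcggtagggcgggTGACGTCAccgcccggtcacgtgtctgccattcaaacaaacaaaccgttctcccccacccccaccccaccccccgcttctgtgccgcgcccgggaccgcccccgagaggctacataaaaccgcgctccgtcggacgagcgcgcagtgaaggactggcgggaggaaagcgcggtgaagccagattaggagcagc
Egr2, chr10:67537619-67537918, plus strand: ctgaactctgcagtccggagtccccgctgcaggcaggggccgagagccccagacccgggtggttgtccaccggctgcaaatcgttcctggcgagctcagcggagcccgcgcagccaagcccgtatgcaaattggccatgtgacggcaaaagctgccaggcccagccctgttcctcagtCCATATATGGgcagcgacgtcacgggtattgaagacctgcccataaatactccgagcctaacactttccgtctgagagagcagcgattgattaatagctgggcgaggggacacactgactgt

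On either strand, the core TGACG stood in the promoters of 7 of the 8 genes, namely Atf3, Dusp1, Egr2, Fos, Fosb, Junb and Nr4a1, and in 20.8% of all 32817 promoter windows of this length. The full element TGACGTCA, which contains the core on both strands, was found for Dusp1 alone among the 8 genes and in 1.79% of all windows. A CArG box was found for Egr2 alone among the 8 genes and in 1.63% of all windows. Sites outside the windows, or with other letters, were not searched, so no gene is said to lack one. A gene was counted when any of its windows matched, whereas the shares are of single windows. Egr2 has 5 of the 12 windows of the 8 genes. The binding site of the EGR factors themselves (GCGGGGGCG or GCGTGGGCG) was found for Fosb and Nr4a1 and in 3.47% of all windows, and TATAAA for Fos and Junb and in 13.6% of all windows. These are matches of letters, and no binding was measured.

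Fos, Fosb, Jun, Junb and Atf3 encode subunits of the AP-1 family, which bind DNA as pairs. Fos had values of 8.997 on normal MG, 10.48 on tumor MG, 11.35 on normal MP, 10.75 on tumor MP, 11.80 on tumor Gr1+, 11.91 on tumor Gr1-, 12.08 on blood Gr1+, 10.59 on blood Gr1-, 12.85 and 11.00 on blood macrophage high and low of tumor-bearing mice, and 8.35 and 11.28 on the same of normal mice. The values on normal MG and on normal blood macrophage high were below background and apart from the other 10. Fosb, which pairs with the Jun proteins as Fos does, was above background on 8 arrays, and its highest values were 11.998 on tumor-bearing blood macrophage high, 11.48 on tumor Gr1- and 11.01 on tumor-bearing blood macrophage low. It was below background on normal MG (8.23), tumor MG (9.12), normal blood macrophage high (8.78) and normal blood macrophage low (9.33), and the other 5 arrays lay between 9.35 and 10.37.

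Jun, the most common partner of Fos, was the only one of the 10 above background on normal MG. It read 10.73 on normal MG, 10.89 on both tumor MG and tumor MP, 11.53 on normal MP, 11.76 on tumor Gr1+, 12.01 on tumor Gr1-, 11.32 on blood Gr1+, 10.72 on blood Gr1-, 11.35 and 10.66 on tumor-bearing blood macrophage high and low, and 8.29 and 10.37 on the same of normal mice. The value on normal blood macrophage high, below background, stood more than 2 log2 units under the next lowest. Junb, often a weaker activator than Jun, was highest on blood Gr1+ (10.94) and tumor-bearing blood macrophage high (10.86) and lowest on normal blood macrophage high (7.14), normal MG (8.63) and tumor-bearing blood macrophage low (9.02), all 3 below background. On the other 7 arrays it lay between 9.47 and 9.93. Atf3, a stress-induced repressor of inflammatory genes, was highest on tumor Gr1+ (11.20), blood Gr1+ (11.01) and tumor-bearing blood macrophage high (10.63), followed by tumor Gr1- (10.35), normal MP and tumor MP (both 9.90), tumor MG (9.54) and blood Gr1- (9.50). It was below background on normal MG (8.24), tumor-bearing blood macrophage low (8.44) and both normal blood macrophage arrays (8.08 for high and 9.33 for low).

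Egr1 and Egr2 encode zinc finger factors that recognise the same DNA site, and Egr1 is a factor of macrophage differentiation and activation. Egr1 was 12.60 on tumor Gr1-, 11.63 on tumor-bearing blood macrophage high, 11.38 on tumor MP, 11.26 on blood Gr1-, 11.21 on tumor MG, 11.10 on normal MP, 10.16 on blood Gr1+, 10.11 on tumor Gr1+ and 9.32 on tumor-bearing blood macrophage low. Normal MG (9.27), normal blood macrophage low (9.20) and normal blood macrophage high (8.20) were below background. Egr2 was above background on the 2 Gr1+ arrays alone, with 10.03 in tumor and 9.95 in blood, and the next value was 9.003 on normal MP. The 2 Gr1+ arrays were thus the highest for Egr2, while for Egr1 they lay under both MP arrays, tumor MG and both Gr1- arrays.

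Dusp1 is the phosphatase that switches off p38 and JNK, and its deposited values had the widest range of the 10 genes. Its lowest value, on normal blood macrophage high, was below background. With the lowest values raised to background, Dusp1 spanned 13.4-fold, less than Nr4a1 at 15.3-fold. Its value was 8.91 on normal MG, 10.52 on tumor MG, 11.48 on normal MP, 10.50 on tumor MP, 11.77 on tumor Gr1+, 11.91 on tumor Gr1-, 12.53 on blood Gr1+, 10.52 on blood Gr1-, 13.83 and 10.62 on tumor-bearing blood macrophage high and low, and 8.38 and 12.26 on the same of normal mice. Nr4a1 encodes an orphan nuclear receptor that monocytes of the patrolling type need. It was highest on tumor-bearing blood macrophage high (13.37), normal blood macrophage low (13.24) and normal MP (11.67), 3 of the 4 arrays with neutrophil markers, then on tumor Gr1+ (10.75), blood Gr1+ (10.74), tumor Gr1- (10.03), blood Gr1- (9.90), tumor MP (9.75), tumor-bearing blood macrophage low (9.65) and tumor MG (9.50), and below background on normal blood macrophage high (9.49) and normal MG (8.49). Ier2, a short nuclear protein of the same response, was highest on tumor-bearing blood macrophage high (10.84), normal blood macrophage low (10.01) and blood Gr1+ (9.93), read 9.59 on tumor Gr1+, 9.51 on tumor-bearing blood macrophage low, 9.50 on normal MP and 9.38 on tumor Gr1-, and was below background on the other 5 arrays.

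Arrays next to each other in these orders were mostly not separable. The SD of the olfactory receptor genes' differences between 2 arrays, which is a yardstick of noise and not a replicate error, was exceeded by 2 to 4 of the 11 steps between neighbours, depending on the gene.

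**Figure D1:**
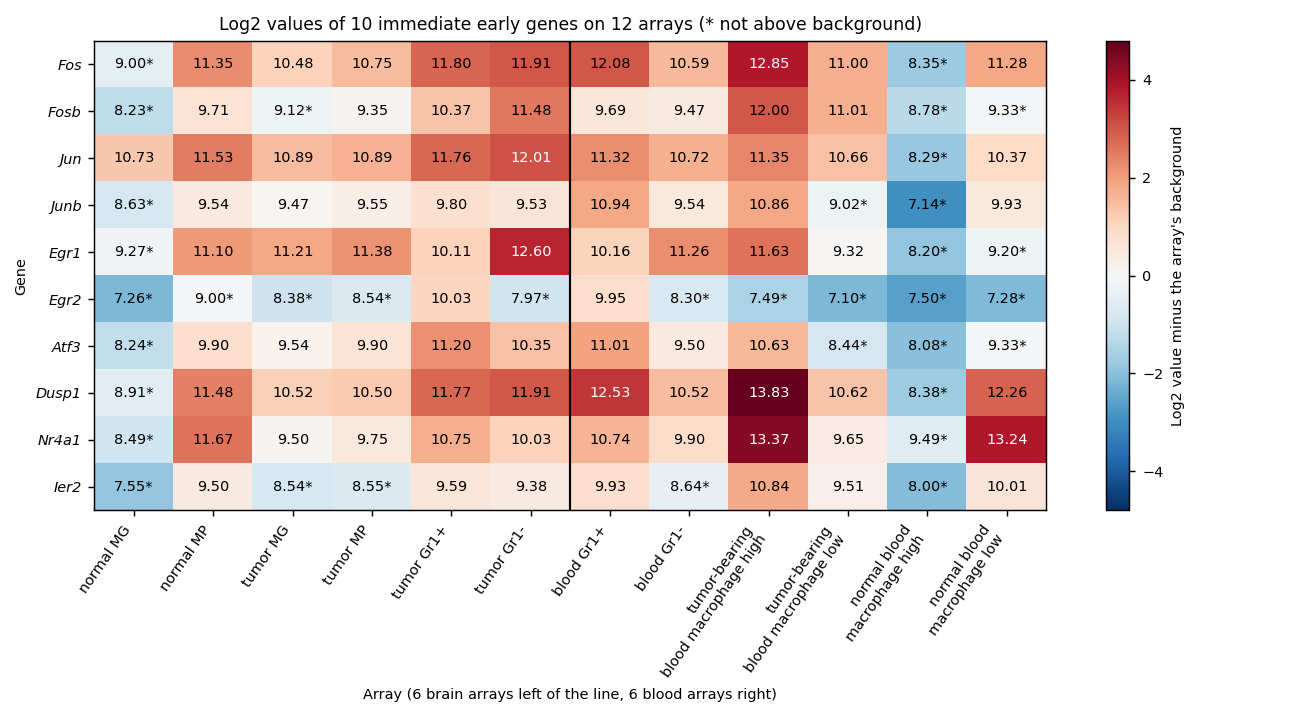
Log2 values of the 10 genes (rows) on the 12 arrays (columns), with the colour giving the value minus the array's own background and an asterisk marking values not above it. Normal MG has 1 of 10 genes above background and normal blood macrophage high has 0, against 6 to 10 on each of the other arrays.

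Tumor MG had higher values than normal MG for all 10 genes, the question being whether microglia in a glioma differ from those of normal brain. The 2-fold threshold was passed upward by 6 of the 10 and downward by 0, beside 2.44% of all genes higher and 3.61% lower, and the median difference was 1.06 on the log2 scale against -0.09 over all genes. The differences ran from 0.16 for Jun to 1.94 for Egr1. Because 9 of the 10 genes were below background on normal MG, most of these are limits: Egr1 was at least 3.43-fold higher, Dusp1 at least 2.12-fold, Fos at least 2.07-fold, Atf3 at least 1.08-fold, Nr4a1 at least 1.05-fold and Junb at least 1.02-fold. Fosb, Egr2 and Ier2 were below background on both arrays and their folds carry little information, and with values raised to background 3 of the 10 genes passed 2-fold. The olfactory receptor genes had an SD of 0.41 between these arrays, and 4.58% of them were 2-fold apart.

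Normal MG was the lowest of the 6 brain arrays for each of the 10 genes, for 10.8% of all genes, and for 19.1% of the 9370 genes above background on any brain array. Of all genes, 27.1% were above background on normal MG and 26.3% on tumor MG, and all 8 measured reference genes, which most cells use, were above background on it. The marker lists differed between the 2 MG arrays as well. Of 6 monocyte markers, 0 were above background on normal MG and 5 on tumor MG, with summed linear signals of 1266 and 10858, and the 7 microglia markers summed to 52235 and 27807. Of 4 oligodendrocyte markers 2 were at least 2-fold lower on tumor MG, among them Mbp at 10.93 against 12.60, and of 5 astrocyte markers 2 were, among them Aldoc at 10.15 against 11.95. Their part in the result was not tested.

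MP of normal brain had higher values of these genes than MG of normal brain. Compared with normal MG, normal MP exceeded the 2-fold threshold upward for 8 of the 10 genes and downward for 0, beside 4.35% and 3.11% of all genes, with a median difference of 1.78 against -0.22. Nr4a1 was at least 4.72-fold higher, Dusp1 at least 4.12-fold, Fos at least 3.77-fold and Egr1 at least 3.16-fold, while Jun, above background on both, differed by 0.79 (1.73-fold). The bounds for Atf3, Fosb, Junb and Ier2 were 1.38-fold, 1.21-fold, 1.08-fold and 1.04-fold, and Egr2 was below background on both arrays, so that with values raised to background 4 of the 10 passed 2-fold. On normal MP all 9 neutrophil markers were above background with a summed linear signal of 55494, against 0 of 9 and 2057 on normal MG. Monocyte markers were above background for 5 of 6 on normal MP and 0 of 6 on normal MG (summed signals 12377 and 1266), and the 7 microglia markers summed to 15719 on normal MP against 52235 on normal MG, each at least 2-fold lower. Their part in the result was not tested.

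From normal MP to tumor MP, 0 of the 10 genes passed 2-fold upward and 1 downward, beside 1.65% and 3.58% of all genes, and the median was -0.53 against 0.12. The 1 gene was Nr4a1, from 11.67 on normal MP to 9.75 on tumor MP (3.81-fold lower). Dusp1 was close to this limit at -0.98 (1.97-fold), Jun was at -0.63, Fos at -0.60, Atf3 and Junb near 0 and Egr1 at 0.29. The neutrophil markers went from 9 above background on normal MP to 1 on tumor MP, and all 9 were at least 2-fold lower there, which was not separated from the values of these genes. Of 7 microglia markers 4 were at least 2-fold higher on tumor MP and 0 lower, with summed linear signals of 15719 on normal MP and 30057 on tumor MP. Lower by as much were 2 of 4 oligodendrocyte, 2 of 4 neuron and 3 of 5 astrocyte markers. The part of these markers was not tested. In signed terms, 8 of the 10 genes differed upward from normal to tumor in MG and downward in MP, as did 11.3% of all genes. With values raised to background 5 of the 10 had these signs, and Atf3 was at -0.003 in MP. That contrast between MG and MP was not tested at the level of the 2 pairs of arrays.

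Within the tumor, MP and MG had close values. None of the 10 genes was 2-fold apart in either direction, beside 0.186% of all genes higher in MP and 0.155% lower, and the differences lay between -0.02 for Dusp1 and 0.36 for Atf3 with a median of 0.17. The SD of olfactory receptor genes was 0.35, so that 9 of the 10 differences were smaller than it. Over all genes the 2 arrays correlated with r = 0.975. Their cell type markers were close as well. Microglia markers were above background for 7 of 7 on tumor MP and 6 of 7 on tumor MG, with summed linear signals of 30057 and 27807. Monocyte markers were so for 5 of 6 on each, with sums of 12137 and 10858. Whether the 2 sorts hold different cells was not tested.

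**Figure D2:**
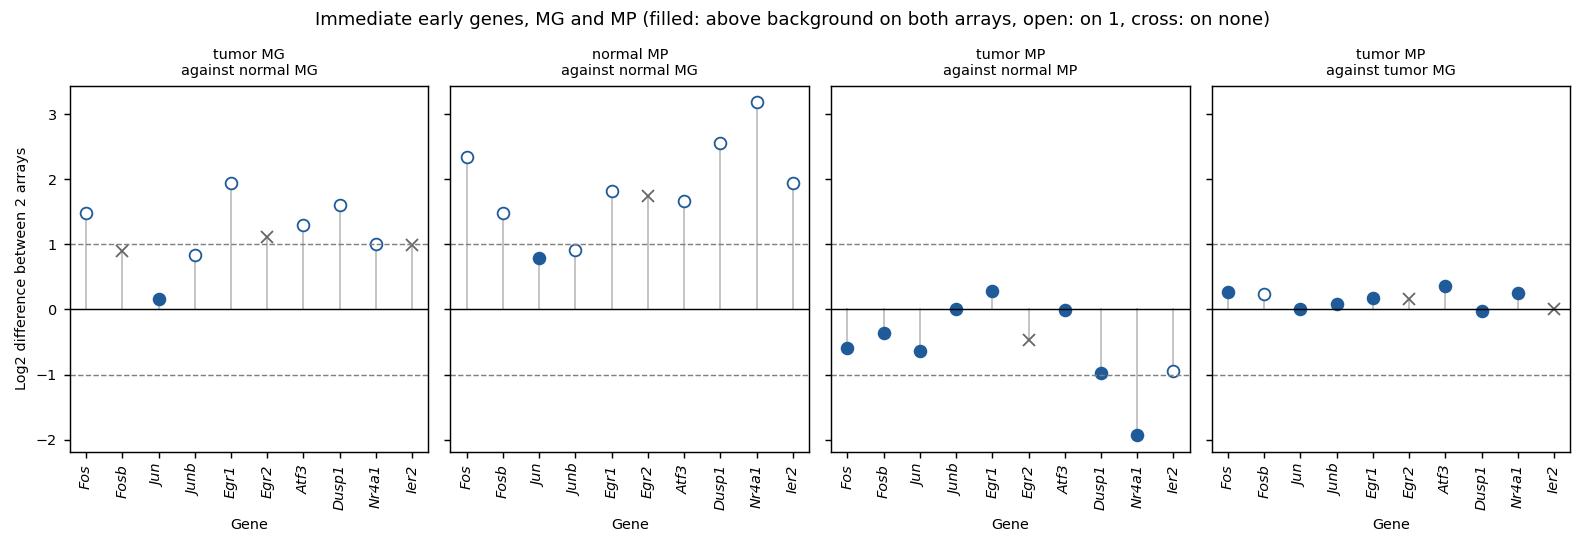
Log2 differences of the 10 genes in 4 comparisons of MG and MP arrays, with dashed lines at 2-fold, filled points for genes above background on both arrays, open points on 1 and crosses on none. The panels against normal MG lie wholly above 0, tumor MP against normal MP has Nr4a1 at -1.93, and tumor MP against tumor MG stays between -0.02 and 0.36.

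The Gr1 sorts of tumor had 10 (Gr1+) and 9 (Gr1-) of the 10 genes above background. Against tumor Gr1- cells, Egr1 was 5.60-fold lower in tumor Gr1+ cells (difference -2.49) and Fosb 2.16-fold lower (-1.11), whereas Egr2 was at least 2.14-fold higher (10.03 against 7.97, the latter below background). These were 1 gene higher and 2 lower of 10, beside 2.88% and 5.12% of all genes. The other 7 genes were within 2-fold, from -0.25 for Jun to 0.85 for Atf3. All 6 monocyte markers were above background on tumor Gr1+ with a summed signal of 35236, against 4 of 6 and 4158 on tumor Gr1-. The 7 microglia markers summed to 3914 on tumor Gr1+ and 33976 on tumor Gr1-. NK cell markers were above background for 0 of 8 on tumor Gr1+ and 4 of 8 on tumor Gr1-, and neutrophil markers for 0 of 9 on both. What these cell types contribute was not tested.

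On the arrays labelled blood, the same sort gave the same direction for the EGR genes. These arrays carried brain transcripts, with Mbp at 11.16 on blood Gr1+ and 11.49 on blood Gr1-. Blood Gr1- also correlated with tumor Gr1- at r = 0.949, so that this pair cannot serve as a separate check of the tumor pair. Egr1 was 2.14-fold lower on blood Gr1+ than on blood Gr1- and Egr2 at least 1.89-fold higher. Most of the other genes were higher on blood Gr1+, with 6 of 10 at least 2-fold higher and 1 lower, beside 3.2% and 4.31% of all genes, and a median of 1.35 against -0.07. Dusp1 was 4.04-fold higher, Atf3 2.85-fold, Fos 2.81-fold, Junb 2.64-fold and Ier2 at least 1.87-fold. Blood Gr1+ had 7 of 9 neutrophil markers above background and blood Gr1- had 0, with summed signals of 36540 and 1504. The microglia markers summed to 3775 and 26038 and the B cell markers to 1619 and 4756, and the part of these markers was not tested. The number of comparisons of this kind is 1 for each tissue, so whether tumor and blood differ was not tested.

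Between Gr1+ cells of tumor and of blood the differences ran from -1.14 to 0.68. None of the 10 was 2-fold higher in tumor and 1 was lower, Junb at 9.80 against 10.94 (2.20-fold), beside 1.02% and 2.97% of all genes. Egr1, Egr2 and Nr4a1 differed by -0.05, 0.09 and 0.01, under the SD of olfactory receptor genes of 0.43, whereas Dusp1 (-0.76) and Fosb (0.68) exceeded it. The neutrophil markers summed to 36540 on blood Gr1+ and 2319 on tumor Gr1+, and their part was not tested. Tumor Gr1- cells, by contrast, were at least 2-fold above blood Gr1- cells for 5 of the 10 genes and below for 0, beside 0.547% and 2.44% of all genes, with a median of 1.07 against -0.06. Fosb was 4.03-fold higher, Dusp1 2.62-fold, Egr1 2.53-fold, Fos 2.48-fold and Jun 2.44-fold, all above background on both arrays, and Junb and Nr4a1 differed by less than 0.2. The blood Gr1- array had microglia markers and correlated with tumor MP at r = 0.962, and NK cell markers were above background for 4 of 8 on tumor Gr1- and 0 of 8 on blood Gr1-. All 4 B cell markers were at least 2-fold lower on tumor Gr1- than on blood Gr1-. The part of these markers was not tested.

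**Figure D3:**
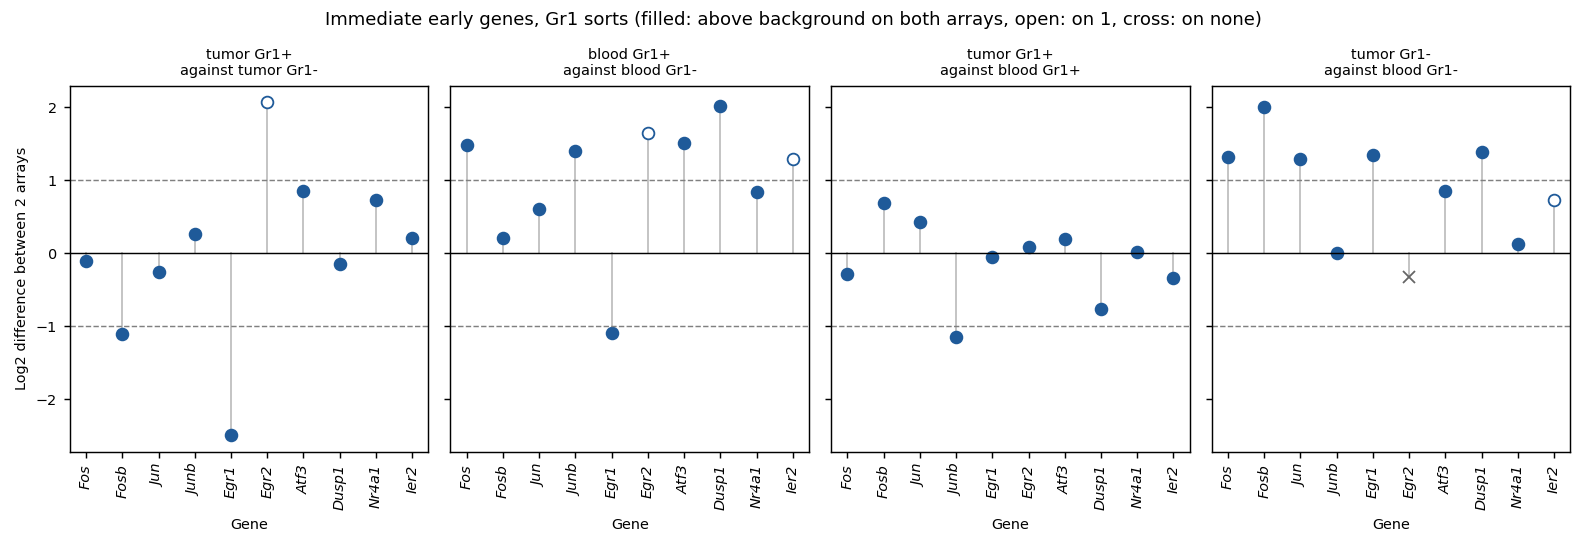
Log2 differences of the 10 genes in 4 comparisons of Gr1 sorts, with dashed lines at 2-fold, filled points for genes above background on both arrays, open points on 1 and crosses on none. Egr1 is the lowest point and Egr2 is above 1 in both comparisons of Gr1+ with Gr1- cells, and tumor Gr1- cells stand above blood Gr1- cells for Fos, Fosb, Jun, Egr1 and Dusp1.

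Tumor-bearing blood macrophage high was the highest of the 6 blood arrays for 7 of the 10 genes and for 11.7% of all genes, and normal blood macrophage high the lowest for 9, the exception being Egr2, and for 24.5% of all genes. Among the 9470 genes above background on any blood array these shares were 21.2% and 44.2%. Between the 2 macrophage high arrays 9 genes passed 2-fold upward in tumor-bearing mice and 0 downward, beside 17.7% and 32.9% of all genes, with Dusp1 at least 13.4-fold, Nr4a1 at least 9.73-fold and Fos at least 6.77-fold higher. That comparison is weak, since 58.2% of olfactory receptor genes were 2-fold apart, the median over all genes was -0.72, and the 2 arrays held neutrophil and NK cell markers respectively. Between the low arrays 1 gene was higher in tumor-bearing mice, Fosb (at least 3.04-fold), and 2 were lower, Nr4a1 (12-fold) and Dusp1 (3.10-fold), beside 3.29% and 6.06% of all genes. Here the NK cell markers were on the array of tumor-bearing mice and the neutrophil markers on that of normal mice. Of 4 B cell markers 3 were at least 2-fold higher on the array of tumor-bearing mice, and the part of these markers was not tested.

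High was also set against low within each kind of mouse. In tumor-bearing mice high exceeded low at least 2-fold for 7 of the 10 and lay 2-fold below it for 0, beside 6.72% and 5.17% of all genes, led by Nr4a1 (13.1-fold) and Dusp1 (9.22-fold). In normal mice 0 were higher and 8 lower, beside 4.37% and 11.9% of all genes, led by Nr4a1 (at least 8.88-fold) and Dusp1 (at least 4.49-fold), with 6 of the 8 above background on either array. With values raised to background 3 of them passed 2-fold, and Junb, Egr1, Atf3 and Ier2 had the other sign. Set crosswise, by arrays that share neutrophil or NK cell markers, tumor-bearing high against normal low had 5 genes at least 2-fold higher and 0 lower, beside 1.79% and 5.79% of all genes. The neutrophil markers summed to 59763 and 32298 on these 2 arrays and the B cell markers to 7182 and 9078, and their part was not tested. In that pair Fosb was at least 6.01-fold higher, Egr1 at least 4.67-fold, Fos 2.97-fold, Dusp1 2.97-fold and Atf3 at least 2.33-fold, while Nr4a1 differed by 0.13. Tumor-bearing low against normal high had 7 higher and 0 lower, beside 13.5% and 13.2% of all genes, but none of the 7 was 2-fold above the background of normal high, the largest bound being that of Fosb at 1.90-fold. With values raised to background, 5 of the 10 genes changed sign there, 36.5% of olfactory receptor genes were 2-fold apart between these arrays and the median over all genes was -0.47. The crosswise pairs were added after the data were seen.

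Over all 12 arrays, no gene of the 10 passed limma's moderated test between brain and blood or between tumor-bearing and normal mice, at an adjusted p under 0.05 over all genes. The spread in that test is between different populations and not between replicates. Tumor-bearing arrays had higher means for 9 of the 10 genes, all but Nr4a1. The median difference over all genes was negative, and the share of all genes with a higher mean was not counted. The Gr1+ and Gr1- sorts came from tumor-bearing mice only, so disease state cannot be separated here from the populations sorted. Over the 12 arrays, the highest values of Jun, Junb, Egr1, Egr2 and Atf3 were on Gr1 arrays. Egr1 averaged 10.96 ± 1.04 (SD, n = 8) in tumor-bearing and 9.44 ± 1.21 (SD, n = 4) in normal mice, a difference of 1.52 ± 0.51 (SE) with a limma adjusted p = 0.181. For Fos the difference was 1.44 ± 0.59 (limma adjusted p = 0.209), for Fosb 1.30 ± 0.51 (limma adjusted p = 0.204), and for Nr4a1 -0.26 ± 0.78 (limma adjusted p = 0.824). At an unadjusted limma p under 0.05, 5 of the 10 genes and 21.0% of all genes passed, and 0.00502% of all genes passed at the adjusted threshold. Without normal blood macrophage high, Fos was at 0.80, Jun at 0.40, Junb at 0.37, Dusp1 at 0.47, Ier2 at 0.20 and Nr4a1 at -0.92, and without normal blood macrophage low Nr4a1 was at 0.49, in the other direction.

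Brain and blood arrays overlapped for all 10 genes. That count was not made for all genes, so it is not read as a trait of the 10. Of the 10, 4 had the higher mean in brain, and the median difference was -0.15 against -0.07 over all genes. Jun had the lowest p, with means of 11.30 ± 0.53 (SD, n = 6) in brain and 10.45 ± 1.13 (SD, n = 6) in blood, a difference of 0.85 ± 0.38 (SE), a limma p of 0.0407 and an adjusted p = 0.399. Without normal blood macrophage high the difference was 0.47. It was the 1 gene of the 10 at an unadjusted limma p under 0.05, as were 11.6% of all genes, and an exact two-sided permutation test over the 924 assignments gave 0 of 10 genes at that level, with Jun at p = 0.0996. By limma's adjusted p, 0.015% of all genes passed. Without both blood Gr1 arrays, on which transcripts of brain cells were seen (the myelin gene Mbp at 11.16 and 11.49), 0 of the 10 genes passed as well, and the lowest adjusted p was 0.150, for Egr2. Without normal blood macrophage high, 0 passed in either comparison.

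The 10 genes moved together across arrays to different degrees. Over the 45 pairs, Pearson's r across the 12 arrays had a median of 0.61 and ran from -0.02 for Fosb and Egr2 to 0.97 for Fos and Dusp1. Without normal blood macrophage high the median was 0.54. Egr2 had a median r of 0.29 with the other 9 genes. These are descriptions over 12 arrays of different populations that share 1 normalization and differ in cell type.

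Nfkbiz, an inducible regulator of NF-kappaB target genes, had the profile most like that of the immediate early genes. Among 8223 genes above background on at least 3 arrays, its r with the mean of 9 of the 10 genes (all but Egr2, which was above background on 2 arrays) was 0.979 over 12 arrays, and with Fos alone 0.960. The next genes were Ppp1r12c (0.939), Fam111a (0.937), Stxbp2 (0.935) and Fem1c (0.934). After Nfkbiz, those most like Fos were Arhgap30 (0.952) and Becn1 (0.945). Nfkbiz is also among the 19 feedback inhibitors counted here. Its value was 8.52 on normal MG and 9.93 on tumor MG, and 8.25 and 12.21 on blood macrophage high of normal and of tumor-bearing mice.

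**Figure D4:**
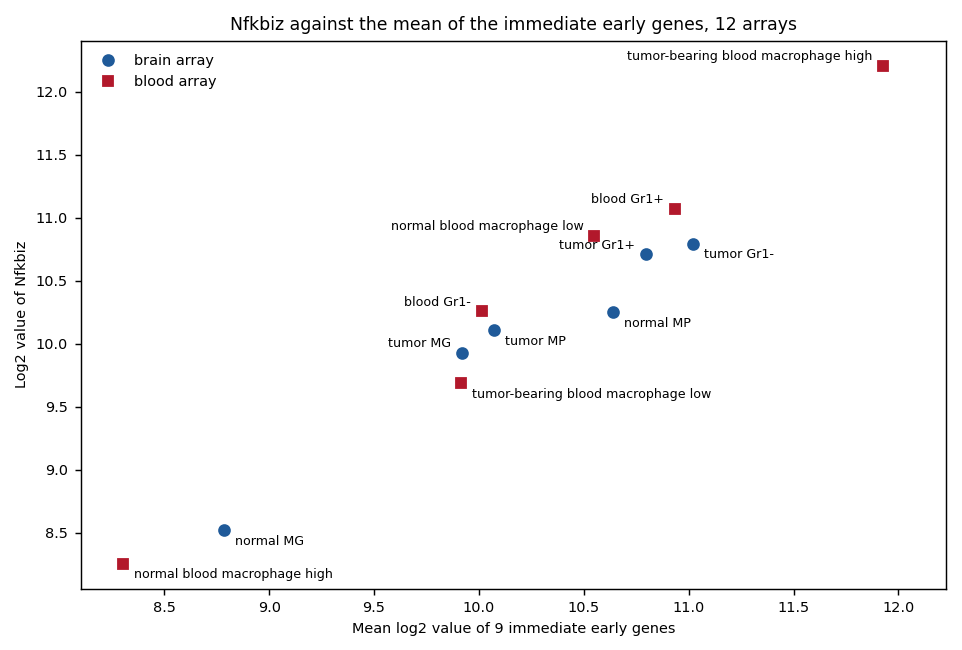
Log2 value of Nfkbiz against the mean log2 value of 9 immediate early genes, 1 point for each of 12 arrays (circles brain, squares blood). Normal MG and normal blood macrophage high are lowest on both axes and tumor-bearing blood macrophage high is highest on both.

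Other genes of the response were counted from fixed lists. The shares of all genes printed above for each pair of arrays belong beside these counts too. For tumor MG against normal MG they were 2.44% higher and 3.61% lower. Of 19 other immediate early transcription factors, 3 passed 2-fold upward from normal MG to tumor MG, each below background on both arrays, and 0 lower, with a median of 0.23. The largest difference among those above background was that of Ier5, at 0.41. In normal MP against normal MG 5 of 19 were higher and 0 lower, led by Klf4 (at least 1.44-fold) and Klf2 (at least 3.07-fold), which control quiescence and monocyte differentiation. From normal MP to tumor MP, Klf2 was at least 3.54-fold and Klf4 at least 1.66-fold lower. Between tumor Gr1+ and Gr1- cells 4 were higher and 1 lower. Fosl2, a Fos relative, was at least 2.80-fold higher in Gr1+ cells, and Nr4a3, a relative of Nr4a1, at least 2.26-fold lower. Between blood Gr1+ and Gr1- cells 5 were higher, with Fosl2 at least 4.55-fold, and 2 lower.

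Feedback inhibitors are induced along with these genes and shut the signal off. In tumor MG against normal MG 5 of 19 were at least 2-fold higher and 0 lower, with a median of 0.32, and the 3 of them above background on either array were Socs3, an inhibitor of cytokine signalling (10.39 against 8.43, at least 1.94-fold), Nfkbiz (at least 1.41-fold) and Nfkbia, an inhibitor of NF-kappaB (10.46 against 9.45, 2.01-fold). In tumor MP against normal MP 1 was higher, Socs3 (at least 2.34-fold), and 1 lower, Spry2 (at least 1.14-fold). Tumor Gr1- against blood Gr1- had 0 of 19 in either direction, and a median of 0.05. Of 14 measured upstream kinases and factors, 0 were 2-fold apart in tumor MG against normal MG or in any of the Gr1 comparisons, and 1 was higher in normal MP than in normal MG, the p38 target kinase Mapkapk2 (2.23-fold).

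Cytokines and surface genes known to appear in microglia activated outside the body passed 2-fold upward from normal MG to tumor MG for 10 of 15 genes, beside 2.44% of all genes. Their median was 1.33, and 4 of these were above background on either array. Of 6 monocyte markers, 0 were above background on normal MG and 5 on tumor MG, and their part was not tested. Ccl2, which attracts monocytes, was 10.24 against 6.78 (at least 1.75-fold), Il1b 10.71 against 7.64 (at least 2.42-fold) and Tnf 9.78 against 7.63 (at least 1.27-fold). Normal MP against normal MG had 6 higher and 1 lower, the latter Il1a (at least 2.49-fold lower). From normal MP to tumor MP, Il1a was in turn at least 2.37-fold higher, and tumor Gr1+ cells had at least 4.83-fold less of it than tumor Gr1- cells. The microglia markers summed to 15719 on normal MP and 30057 on tumor MP. They summed to 3914 on tumor Gr1+ and 33976 on tumor Gr1-, and their part was not tested.

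Heat shock genes, which encode chaperones, were counted as a further list, and handling itself was not measured. Of 14 listed genes 11 were measured. In tumor MG against normal MG 1 was 2-fold higher, below background on both arrays, with a median of 0.27, in normal MP against normal MG 0 of 11 were 2-fold apart, and in blood Gr1+ against Gr1- 0 of 11 were. Between tumor-bearing and normal blood macrophage high, where olfactory receptor genes also differed widely, 7 of 11 were higher and 0 lower, beside 17.7% and 32.9% of all genes. In tumor Gr1+ cells 6 of 11 were at least 2-fold above blood Gr1+ cells, beside 1.02% of all genes. Their median was 1.102, whereas the 10 immediate early genes had a median of -0.02. The chaperone Hsph1 was 10.97 against 9.09 (at least 3.68-fold), the inducible Hsp70 gene Hspa1a 10.67 against 8.88 (at least 2.98-fold), Dnaja1 12.005 against 10.43 (2.98-fold) and Hsp90aa1 12.36 against 11.11 (2.37-fold). In tumor Gr1- against blood Gr1- 3 of 11 were higher, with a median of 0.79, among them Hspa1a (9.55 against 8.16, at least 1.43-fold). Hspa1a was above background on the 2 tumor Gr1 arrays and on none of the other 10. The neutrophil markers summed to 36540 on blood Gr1+ and 2319 on tumor Gr1+, and their part in these values was not tested.

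**Figure D5:**
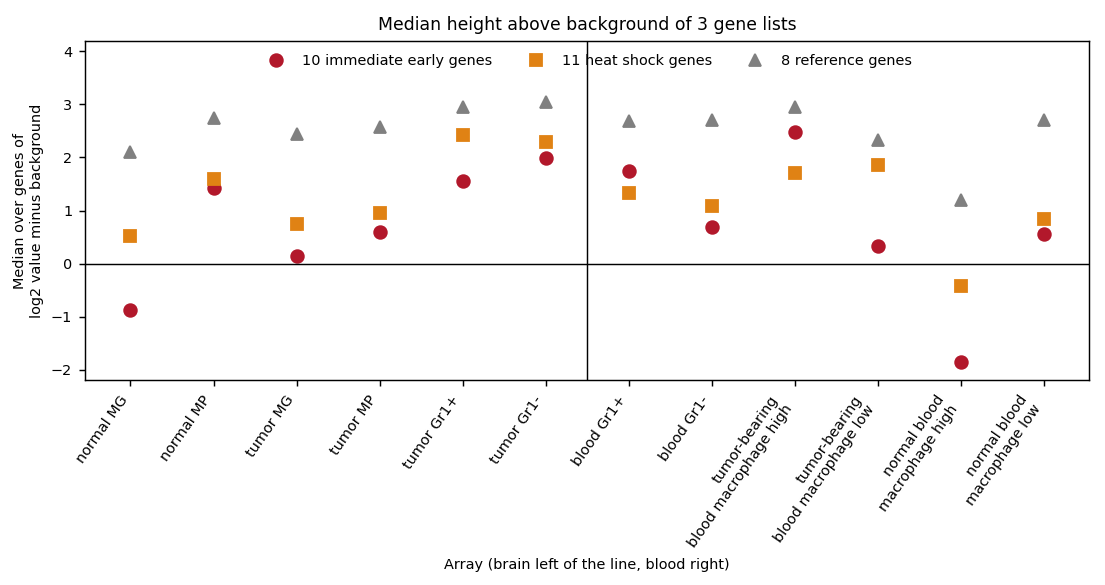
Median over each gene list of log2 value minus background, on each of 12 arrays, for 10 immediate early genes (circles), 11 heat shock genes (squares) and 8 reference genes (triangles). The reference genes are above 0 on all arrays, the immediate early genes are below 0 on normal MG (-0.88) and normal blood macrophage high (-1.84), and the heat shock genes are highest on tumor Gr1+ and tumor Gr1-.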

How the data were processed

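The authors sorted cells, extracted RNA with TRIzol, amplified it in 2 cycles and hybridised it to Mouse Gene 1.0 ST arrays, 1 per population. Per the series table, the authors deposited log2 values. The submitters' processing notes name RMA, and neither its settings nor the build and release of the annotation are given in the sources used here.

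Of 28944 probe sets, 21789 have 1 gene symbol, 1621 several and 5534 none in the platform annotation. The first group was used, with the brightest probe set of each gene by its mean over 12 arrays, which left 19938 genes. Values were neither rescaled nor filtered. With no replicates, 2 arrays were compared by their difference, with no test, and a gene was called at 2-fold. For a gene below background on 1 array, the fold is against the background there ("at least"). limma 3.58.1 in R 4.3.3 was fitted to all genes with tissue and disease state, with Benjamini-Hochberg adjustment. The code was also run on simulated data with the same noise level for every gene. The real arrays differ in this, so that run does not show how the fit performs on them. The number of arrays limits the precision.

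All 10 genes are named. From each pathway list, up to 4 genes are named, those with the largest difference that are above background on the brighter array. The 10 genes and the lists were chosen with earlier results of these data known. Alternatives were other normalizations (median centring, quantile, cyclic loess), the mean of probe sets, a floor at background, other background percentiles (90 and 99), other fold thresholds (1.5 and 3), a filter on dim genes, other covariates and leaving out arrays. A gene of the study is not reported here. Python 3.11.15 with pandas 2.3.3, numpy 2.4.6, scipy 1.17.1 and matplotlib 3.10.9 was used.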

Additional observations from a re-analysis of the deposited data

Results flagged for a closer look

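Of 20 groups of 6 arrays tested for a value apart from the rest (10 genes in brain and in blood), 2 had one. The 6 arrays of a group are different populations and the genes move together, so that the nominal rate of 1 in 20 does not hold here. Jun on normal blood macrophage high, at 8.29, stood apart from the other 5 blood arrays, which lay between 10.37 and 11.35. That array had the highest background (10.09) and the fewest genes above it (11.2%), and Jun was below it. Junb on normal MG, at 8.63, stood apart from the other 5 brain arrays, which lay between 9.47 and 9.80. It was below the background of normal MG (9.43), so that the sizes of both gaps were not measured.

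Nr4a1 was at a difference of 1.01 on the log2 scale for tumor MG against normal MG and of -1.93 for tumor MP against normal MP, the 1 gene of the 10 with differences over 2-fold in both directions. On normal MG it was below background, so that its fold there is bounded only at 1.05. The difference between MG and MP was not tested, as each population has 1 array. All 9 neutrophil markers were above background on normal MP and 1 of 9 on tumor MP. Of 7 microglia markers 4 were at least 2-fold higher on tumor MP than on normal MP. The part of these markers in the result was not tested.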

How the results depend on the processing

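The counts of genes at least 2-fold apart and of genes above background were taken under every alternative, and 248 such values stayed within 1.5 times while 27 moved by more. With values below background raised to background, tumor MG against normal MG had 3 genes higher, normal MP against normal MG 4 higher, normal blood macrophage high against low 3 lower, and tumor-bearing against normal blood macrophage high 1 lower. Raising values to background reversed 6 of the differences that had passed 2-fold in the planned pairs, and 21 differences of any size over all 14 comparisons. The 6 were of genes below background on at least 1 of the 2 arrays: Egr2 was -0.062 in tumor MG against normal MG and -0.36 in normal MP against normal MG, and in normal blood macrophage high against low Junb was 0.16, Egr1 0.68, Atf3 0.68 and Ier2 0.074. They follow from the background of the arrays, which then takes the place of the values. Tumor MP against normal MP had 3 genes lower after median centring, 2 after quantile and 2 after cyclic loess normalization, and 5 at a 1.5-fold threshold. At 1.5-fold, tumor Gr1+ against Gr1- had 3 higher, tumor Gr1+ against blood Gr1+ 1 higher and 2 lower, and tumor-bearing against normal blood macrophage low 4 lower. At 3-fold, tumor MG against normal MG had 2 higher, tumor Gr1+ against Gr1- 1 lower, blood Gr1+ against Gr1- 2 higher and 0 lower, tumor Gr1+ against blood Gr1+ 0 lower and tumor Gr1- against blood Gr1- 1 higher. Blood Gr1+ against Gr1- had 0 lower after median centring. The crosswise blood pairs, chosen after seeing the data, had 5 and 7 higher and 0 lower. With the 90th percentile as background, normal MG had 2 genes above it, and with the 99th tumor MG had 4, tumor MP 5, blood Gr1- 5 and tumor-bearing blood macrophage low 4. The shares of all genes given earlier are for 2-fold on the values as deposited, and do not apply at these other settings.

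No gene of the 10 was called by limma under any alternative, leaving out each array in turn included (0 to 0 genes), with the lowest adjusted p at 0.0729 for Egr1 by disease state with values raised to background. The number of all genes called between brain and blood rose from 3 to 659 without blood Gr1- and to 1156 without both blood Gr1 arrays, the latter chosen after seeing the data, and was 421 with values raised to background, and by disease state it was 1 as deposited, 194 with that floor and 95 in brain arrays alone. Normalization moved the median difference of all genes by over 0.1 in several comparisons, for normal MP against normal MG from -0.22 to -0.01 with cyclic loess. No paired analysis was possible because the labels give no replicate numbers. One array per population limits every value above, and the spread between repeats of a population is unknown.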
